A study of Mus musculus with 6 samples.

Results

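The genes Hsd3b2, Hsd3b3, Hsd3b5 and Hsd3b6 of one enzyme family and the cytochromes P450 Cyp17a1 and Cyp21a1 were followed in the livers of male and female mice. They were taken by symbol from a table of 24197 genes, in which each of the 6 has 1 row. The liver RNA came from intact CD-1 mice, an outbred stock, with no treatment. Their ages ran from 7 to 9 weeks in males and from 7 to 11 weeks in females. Each sex had 3 libraries, and each library was a pool of RNA from 17 livers in males or 12 livers in females, so the spread between single animals is not visible here. The RNA was poly-A selected and the libraries kept strand.

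Steroid hormones are built from cholesterol in the adrenal gland and the gonads, and the liver mainly takes them apart. Enzymes of the 3-beta-hydroxysteroid dehydrogenase (Hsd3b) family turn delta-5 steroids such as pregnenolone into delta-4 ketosteroids such as progesterone, while some mouse liver forms act chiefly as reductases that inactivate active androgens. Cyp17a1, the 17-alpha-hydroxylase and lyase, leads to androgens and to hydroxylated glucocorticoid precursors, and Cyp21a1, the steroid 21-hydroxylase, leads to corticosterone and aldosterone. In rodent liver many enzymes of steroid and drug metabolism differ between the sexes, through the sex-specific pattern of pituitary growth hormone release.

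Of the 6 enzymes, 4 were higher in male liver (Hsd3b5, Hsd3b2, Hsd3b3 and Cyp21a1), 1 was higher in female liver (Cyp17a1) and 1, Hsd3b6, was close to undetected in both. The values are FPKM, fragments per kilobase scaled to the library total, given for the gene body (exons) and again for introns. A gene was called where the adjusted p in the authors' deposited table was under 0.05. Of 17997 genes above 0 in the gene body, 10% were called, 4.61% with the higher level in males and 5.44% with the higher level in females. In introns 3.16% of 16569 genes were called, 1.76% with the higher level in males and 1.40% in females, and the same 5 enzymes passed in the same directions. With a further limit of a 2-fold ratio 4 of the 6 enzymes remained in the gene body and 4 in introns, beside 2.96% and 1.88% of all genes. In RNA of whole liver, fewer cells of a type and less RNA per cell cannot be told apart.

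The table gives only the mean of each sex. For these genes the mean could be taken apart into whole reads per library, because the 6 library totals leave repeated steps in the values. The totals were 28358105, 38215906 and 41206357 reads in females and 28415535, 37727874 and 42673908 reads in males. The female and male sums differ by 0.962%. Which total belongs to which numbered pool is not known, so libraries are called the smallest, middle and largest of their sex. The male gene body of Hsd3b5 allowed 3 sets of reads and has no library values. Library values were recovered for these enzymes and Hsd3b1 only, so the share of all genes whose sexes do not overlap is not known.

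Hsd3b5 had the highest mean among the 6 enzymes in male liver. It is a mouse liver form known mainly as a reductase of ketosteroids and as male-biased in adult liver. Its gene body was at 11.9, 11.5 and 19.0 FPKM in the smallest, middle and largest female library, a mean of 14.1 FPKM, and at a mean of 89.4 FPKM in males. The authors' deposited table gives it a 6.54-fold higher level in males at an adjusted p of 1.27e-50. Its introns lay at 0.0404, 0.0548 and 0.0787 FPKM in the female libraries and at 0.338, 0.401 and 0.316 FPKM in the male libraries. No male library overlapped a female library in introns, and the lowest male library was 4.02 times the highest female one. The intron fold in the authors' deposited table was 6.47, with an adjusted p of 1.78e-31, close to the fold of the gene body.

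Hsd3b2, a form found in mouse liver and kidney, was the next most male-biased of the family. Female libraries stood at 17.0, 14.7 and 21.5 FPKM and male libraries at 53.1, 50.3 and 43.2 FPKM in the order smallest, middle, largest. The lowest male library was 2.01 times the highest female library, so the sexes did not overlap. The authors' deposited table gives a 2.86-fold higher level in male liver, adjusted p 1.50e-25. Its introns were the best covered of the 6 enzymes, at 1.13, 1.03 and 1.63 FPKM in females and 3.75, 3.89 and 3.34 FPKM in males. There too the sexes did not overlap, and the authors' deposited table gives 3.14-fold in introns with an adjusted p of 1.46e-14.

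Hsd3b3, a second form of liver and kidney, was the most abundant of the 6 in female liver and differed least between the sexes among the called genes. Its female libraries were at 37.2, 33.0 and 37.7 FPKM and its male libraries at 44.6, 44.5 and 45.9 FPKM. The ranges did not overlap, and the gap between the nearest libraries was 1.18-fold. The authors' deposited table gives a 1.30-fold higher level in male liver, adjusted p 0.00199, below a 2-fold limit. In introns the females were at 0.480, 0.428 and 0.530 FPKM and the males at 0.639, 0.666 and 0.624 FPKM. The intron difference in the authors' deposited table was 1.46-fold with an adjusted p of 0.0231. The table lists 2 locations for this gene.

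Hsd3b6, a form known in mouse from the adrenal gland, placenta and skin, had 1 read in all male gene bodies and none in the female ones. It also had 1 intron read in females and none in males. A count of 0 over the female libraries allows a level of up to 0.0154 FPKM, which covers counting error only. Both sexes were under that limit of 3 reads, so no fold was taken, and the adjusted p in the authors' deposited table was 1.

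The 4 genes are close copies. Each codes for 373 amino acids in the reference transcripts, and over the aligned coding bases Hsd3b2 and Hsd3b3 are 95.1% identical, Hsd3b2 and Hsd3b6 94.4%, and Hsd3b5 and Hsd3b2 81.3%. Of the 50-base windows of the coding sequence, 35.8% of those of Hsd3b2, 34.0% of Hsd3b3, 26.2% of Hsd3b5 and 20.2% of Hsd3b6 occur unchanged in a transcript of another member of the Hsd3b1 to Hsd3b6 group. How the authors treated reads that match several copies is not given in the sources used here, so the split of reads between Hsd3b2 and Hsd3b3 is uncertain. Hsd3b6, which shares 94.5% of coding bases with Hsd3b3, had no gene body read in the female libraries, in which Hsd3b3 had 7062 reads together.

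The start regions of these genes are shown because 3 neighbouring copies were higher in male liver and another copy, Hsd3b1, was higher in female liver. Each run covers 250 bases before to 50 bases after the gene start on the minus strand of GRCm38.p6, from RefSeq. In the first 3, capitals mark runs of 12 or more bases that occur in another of the printed regions. In Hsd3b1, which has no such run, capitals mark its single match to TTCNNNGAA.
Hsd3b5, chr3:98645485-98645784: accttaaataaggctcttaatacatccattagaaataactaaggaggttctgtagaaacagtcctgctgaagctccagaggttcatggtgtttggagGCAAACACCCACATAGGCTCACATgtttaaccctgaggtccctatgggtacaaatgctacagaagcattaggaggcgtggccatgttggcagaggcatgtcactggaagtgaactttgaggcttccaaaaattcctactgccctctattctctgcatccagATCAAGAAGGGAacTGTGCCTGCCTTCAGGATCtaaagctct
Hsd3b3, chr3:98763079-98763378: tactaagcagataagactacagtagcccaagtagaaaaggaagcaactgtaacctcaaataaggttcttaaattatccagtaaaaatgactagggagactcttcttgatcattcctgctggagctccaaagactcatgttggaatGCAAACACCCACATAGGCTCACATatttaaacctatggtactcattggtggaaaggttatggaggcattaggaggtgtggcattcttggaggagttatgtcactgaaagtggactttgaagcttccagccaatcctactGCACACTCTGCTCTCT
Hsd3b2, chr3:98724494-98724793: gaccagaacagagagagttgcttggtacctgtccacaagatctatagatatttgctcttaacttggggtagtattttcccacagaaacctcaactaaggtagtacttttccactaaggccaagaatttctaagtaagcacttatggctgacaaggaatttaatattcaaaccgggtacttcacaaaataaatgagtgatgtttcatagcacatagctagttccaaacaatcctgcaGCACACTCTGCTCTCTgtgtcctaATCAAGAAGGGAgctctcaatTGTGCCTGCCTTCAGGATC
Hsd3b1, chr3:98859745-98860044: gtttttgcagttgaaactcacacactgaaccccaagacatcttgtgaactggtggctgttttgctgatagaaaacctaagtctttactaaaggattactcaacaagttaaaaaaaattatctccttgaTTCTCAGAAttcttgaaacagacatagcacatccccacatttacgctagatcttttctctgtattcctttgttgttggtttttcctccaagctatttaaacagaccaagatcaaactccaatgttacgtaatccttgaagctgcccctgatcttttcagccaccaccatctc
The Hsd3b5 and Hsd3b3 regions share a run of 24 bases and are 76.3% identical over their aligned bases. Hsd3b2 is 69.0% identical to Hsd3b5 and 63.6% to Hsd3b3. Hsd3b1 is 59.9% identical to Hsd3b5, 61.3% to Hsd3b2 and 63.6% to Hsd3b3, also over aligned bases. With gap columns counted, Hsd3b5 is 54.1% identical to Hsd3b3 and 51.0% to Hsd3b2. Hsd3b2 and Hsd3b3 are then the least alike pair, at 44.5%. The run they share ends the Hsd3b3 window but lies further inside the Hsd3b2 window, so the windows are offset. An offset adds gap columns, and its part in this value was not tested. Hsd3b1 is at 46.4% to Hsd3b5, 47.2% to Hsd3b2 and 48.0% to Hsd3b3 on that measure. The level for unrelated regions was not computed. RefSeq has 2 start regions for Hsd3b3, of which the first is shown. The letters TTCNNNGAA, a core that STAT5 binds, were searched on both strands and occur in 8.30% of 32851 start regions of this length. They occur in Hsd3b1, beginning 122 bases before the start, and not in the other 3 windows. The letters ATCNAT, searched as a loose pattern for HNF6 and CUX2, occur on either strand in 21.4% of start regions. Hsd3b5 has 1 match, ATCCAT, and Hsd3b2 has 2, both ATCTAT, which overlap each other. Hsd3b3 and Hsd3b1 have none. No narrower pattern was searched. These matches describe letters in short windows and were not tested as binding sites.

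**Figure D1:**
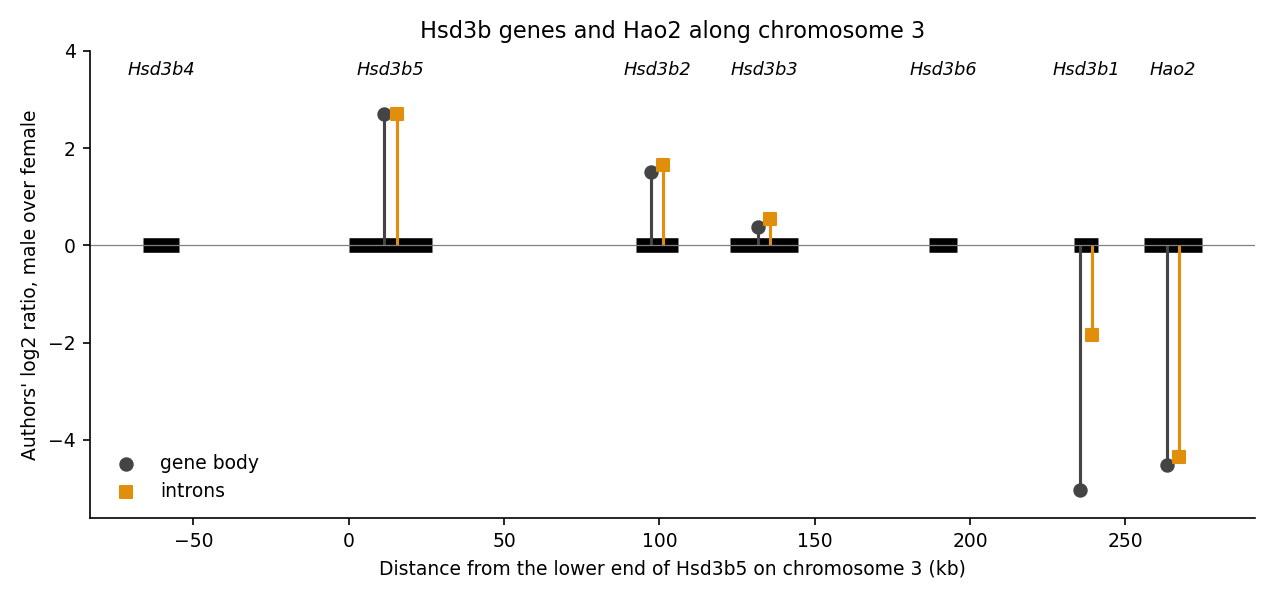
The horizontal axis gives the distance in kb from the lower end of Hsd3b5 in the mm9 intervals of the authors' table, and black bars are gene intervals. The vertical axis gives the authors' log2 ratio of male over female for the gene body (circles) and introns (squares), where both sexes are above 0. Hsd3b5, Hsd3b2 and Hsd3b3 lie above 0 with falling ratios of 2.71, 1.51 and 0.38 in the gene body, and Hsd3b1 and Hao2 lie below 0.

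All 4 genes lie on chromosome 3 on the minus strand of the later annotation, and the interval from Hsd3b5 to Hsd3b1 spans 241 kb. In mm9 the intervals are 98422559 to 98449457 for Hsd3b5, 98515030 to 98528466 for Hsd3b2, 98545399 to 98567051 for the first location of Hsd3b3, and 98609427 to 98618366 for Hsd3b6. The nearest other genes are both relatives. Hsd3b4, 54.6 kb below Hsd3b5 and 95.2% identical to it in coding bases, was at 0 in females and 0.0288 FPKM in males, and was not called. Hsd3b1, 37.8 kb above Hsd3b6 and known as the form of adrenal gland and gonads, was at 0.931, 0.691 and 2.09 FPKM in the female libraries. In males it had 4, 0 and 3 reads, a mean of 0.0379 FPKM. Every female library was above every male library, and the authors' deposited table gives a 32.5-fold higher level in females at an adjusted p of 4.67e-16. Without the largest female library the ratio of mean FPKM fell from 32.7 to 21.4. The Hsd3b1 introns held 14 reads in females and 3 in males, and the intron adjusted p in the authors' deposited table was 1.

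**Figure D2:**
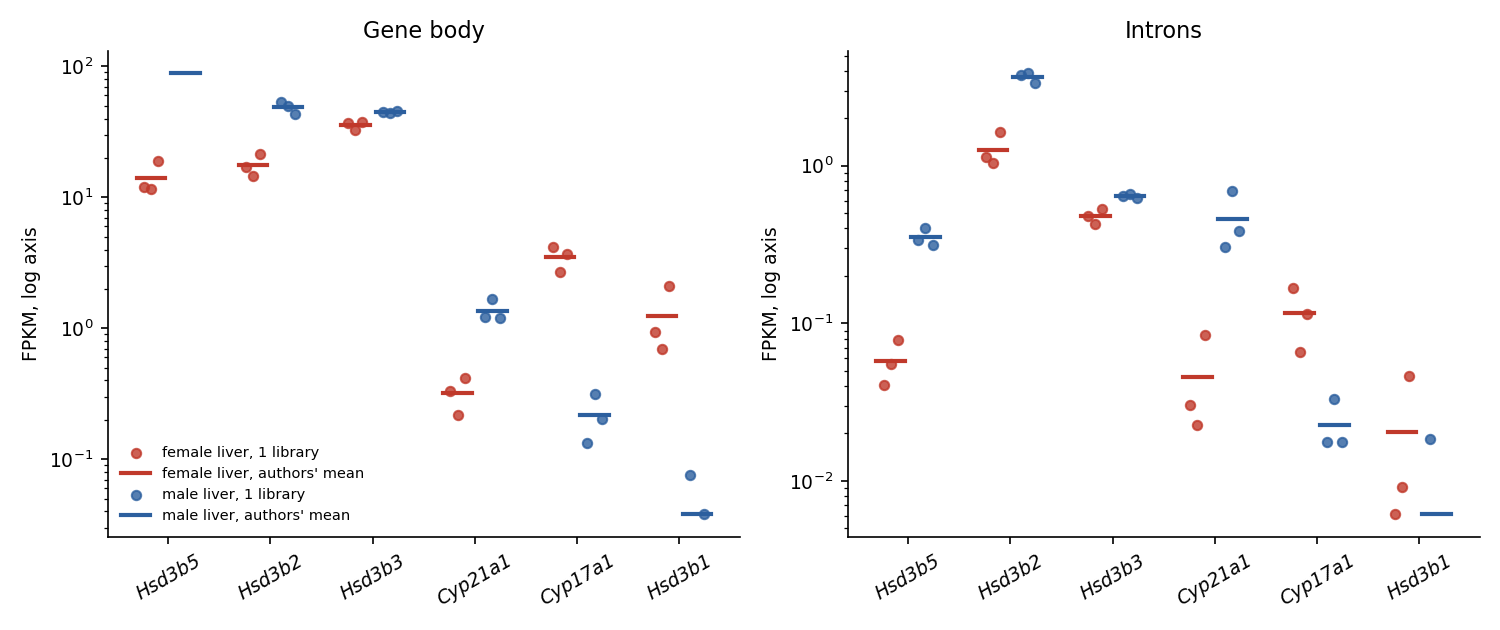
Each point is 1 library and each line the authors' mean of a sex, in FPKM on a log axis, for the gene body (left) and introns (right). Points of value 0 are left out (Hsd3b1 in 1 male gene body and 2 male introns), Hsd3b5 has no points in the male gene body, and Hsd3b6 is not drawn. The sexes separate for Hsd3b2, Hsd3b3, Cyp21a1 and Cyp17a1 in both panels and for Hsd3b5 in introns. How many of all genes separate in this way is not known.

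Cyp17a1 was the 1 enzyme of the 6 called as higher in female liver. Its gene body was at 4.19, 2.71 and 3.68 FPKM in the smallest, middle and largest female library, from 219, 191 and 279 reads. In males it was at 0.134, 0.317 and 0.204 FPKM, from 7, 22 and 16 reads. The lowest female library was 8.57 times the highest male library. The authors' deposited table gives a 15.1-fold higher level in females at an adjusted p of 1.19e-52. The introns were thin, with 19, 10 and 19 reads in the female libraries and 2, 5 and 3 in the male ones. The groups did not overlap there, and the authors' deposited table gives a 4.39-fold difference in introns with an adjusted p of 0.00197. The gene lies at 46741655 to 46747490 on chromosome 19 in mm9, on the minus strand. Its neighbours did not pass the test: Wbp1l, 9.78 kb away, was at 24.7 FPKM in females and 23.6 FPKM in males, and 2010012O05Rik, 16.9 kb away, was at 2.13 FPKM in females and 1.52 FPKM in males.

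Cyp21a1 was low in both sexes and higher in males. The female libraries held 18, 16 and 33 reads, or 0.330, 0.218 and 0.416 FPKM, and the male libraries 67, 122 and 98 reads, or 1.23, 1.68 and 1.19 FPKM. The groups did not overlap, and the lowest male library was 2.87 times the highest female one. The authors' deposited table gives a 4.38-fold higher level in male liver, adjusted p 4.83e-16. The introns held 1, 1 and 4 reads in females and 10, 30 and 19 in males. The authors' deposited table gives them a 9.98-fold difference with an adjusted p of 2.85e-07. On the log2 scale the intron ratio of the means was 3.33, and 4.11 without the largest female library, which holds 4 of the 6 female reads.

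Cyp21a1 lies at 34938293 to 34941371 on chromosome 17 in mm9, between the copies of complement factor C4. C4a, a close copy of C4b, lies 4.67 kb away at the higher coordinate, and both it and Cyp21a1 are on the minus strand, so C4a precedes Cyp21a1. C4a was also higher in males, at 2.01 FPKM in females and 19.3 FPKM in males, and the authors' deposited table gives 9.90-fold with an adjusted p of 9.26e-168. In introns C4a was at 0.402 FPKM in females and 2.12 FPKM in males. C4b, 57.5 kb to the other side, was at 124 FPKM in females and 141 FPKM in males, with an adjusted p of 0.0616 in the authors' deposited table. The part of C4a in the Cyp21a1 values was not tested.

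The level in introns relative to the gene body differed widely between the enzymes. Over genes of at least 0.5 FPKM the median gene had introns at 1.47% of the gene body level in females and 1.38% in males. Hsd3b5 lay below this, at 0.410% in females and 0.394% in males, and Hsd3b3 close to it, at 1.33% and 1.43%. Hsd3b2 was at 7.14% in females and 7.49% in males. Cyp21a1 reached 14.2% in females and 33.6% in males, and Cyp17a1 3.29% in females and 10.5% in males. The log2 sex ratio of introns minus that of the gene body was 0.14 for Hsd3b2, 0.17 for Hsd3b3 and -0.01 for Hsd3b5. It was 1.19 for Cyp21a1, whose intron ratio was further from equality. It was 1.78 for Cyp17a1, whose intron ratio was nearer to equality. With a pseudocount of 1 FPKM the sign turned for Cyp21a1 (-0.36), Hsd3b2 (-0.37) and Hsd3b3 (-0.16). The differences for the P450 genes rest on 6 intron reads in female Cyp21a1 and 10 in male Cyp17a1 and were not tested.

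In 5 of 6 genes (the called enzymes and Hsd3b1), the largest female library held the highest female value of the gene body, and the same 5 of 6 held for introns. Cyp17a1 was the exception in both, and the share of all genes that were highest in the largest female library is not known. Without that library the log2 ratio of mean FPKM in the gene body was 2.93 for Hsd3b5, 1.63 for Hsd3b2, 0.36 for Hsd3b3 and 2.32 for Cyp21a1, each in the same direction as with all libraries.

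The order of levels differed between the sexes. In females it ran Hsd3b3, Hsd3b2, Hsd3b5, Cyp17a1, Cyp21a1 and Hsd3b6 in FPKM. The ranges of Hsd3b2 and Hsd3b5 overlapped over libraries, although Hsd3b2 was the higher in 3 of 3 libraries. In males it ran Hsd3b5, Hsd3b2, Hsd3b3, Cyp21a1, Cyp17a1 and Hsd3b6. There Hsd3b2 and Hsd3b3 overlapped, with Hsd3b2 higher in 2 of 3 libraries.

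**Figure D3:**
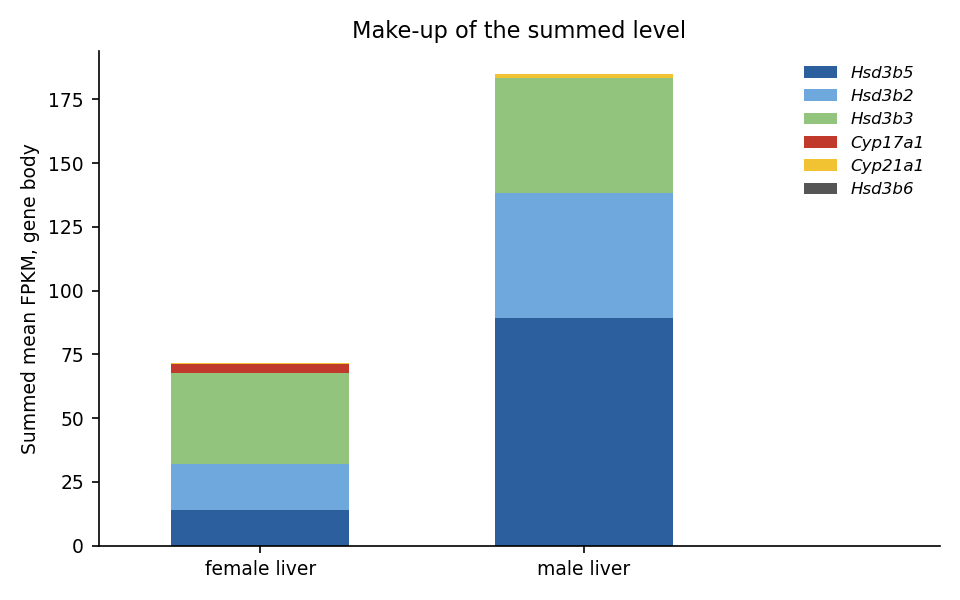
Stacked bars give the sum of the authors' mean gene body FPKM of the 6 enzymes in female and male liver, on an axis from 0. The sum is 71.6 FPKM in females and 184.8 FPKM in males, with Hsd3b3 the largest part in females and Hsd3b5 in males. How reads matching several Hsd3b copies were counted is not known.

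Summed over the 6 enzymes, the mean level was 71.6 FPKM in females and 184.8 FPKM in males. Hsd3b5 made up 19.7% of the sum in female and 48.4% in male liver, and Hsd3b3 50.2% and 24.3%. The share of Hsd3b2 was 24.7% in females and 26.4% in males. Cyp17a1 took 4.93% of the female and 0.118% of the male sum. These shares, and the order of levels above, rest on how reads matching several Hsd3b copies were counted, which is not known. With Hsd3b1 added and the P450 genes left out, the summed Hsd3b level was 69.0 FPKM in females and 183 FPKM in males, a ratio of 2.66. Without Hsd3b5 the same ratio was 1.71.

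The other genes of steroid metabolism ranged from nearly equal to folds above those of the 5 called enzymes (Sult2a1, 1456-fold, and Hsd3b1, 32.5-fold). Over 9 lists, 47 genes had a mean of at least 0.5 FPKM. Of these 18 were called, 9 higher in each sex, or 38.3%, beside 13.8% of the 10936 genes at that level (6.68% toward males and 7.14% toward females). Their median log2 ratio was 0.07, beside 0.02 (median) over those 10936 genes. Since the lists were drawn up with earlier results of these data known, the share is a description.

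Genes that bring cholesterol to the side chain cleavage enzyme or serve it did not pass the test. None of the 7 measured genes was called, which in so small a list is near the 13.8% called among all genes at that level. Among the 7, Stard5, a carrier of cholesterol, was at 25.4 FPKM in females and 25.7 FPKM in males. Tspo, an outer mitochondrial membrane protein, was at 17.5 FPKM in females and 19.0 FPKM in males. Cyp11a1, which makes pregnenolone, was at 0 in females and 0.00661 FPKM in males. The later P450 enzymes Cyp11b1, Cyp11b2 and Cyp19a1 were listed at 0 in both sexes. Of the regulators of steroidogenic genes, none of 4 measured was called, which is also near that share. Nr0b2 was at 15.8 FPKM in females and 14.6 FPKM in males and Nr5a2 at 7.89 FPKM in females and 6.76 FPKM in males. Nr5a1 and Nr0b1 were listed at 0.

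Among relatives of the Hsd3b family 2 of 4 measured genes were called, both higher in females: Hsd3b1, described above, and Sdr42e1 at 35.5 FPKM in females and 26.5 FPKM in males. Hsd3b7, which works in bile acid synthesis, was at 152 FPKM in females and 145 FPKM in males, and Nsdhl, of cholesterol synthesis, at 21.8 FPKM in females and 20.2 FPKM in males. Neither passed the test. Of 7 measured electron partners, Por, the reductase that feeds microsomal P450 enzymes, was higher in females at 38.7 against 29.2 FPKM. H6pd, which supplies NADPH inside the endoplasmic reticulum, was higher in males at 44.5 against 27.8 FPKM. Cyb5a, which aids the lyase step of Cyp17a1, was at 527 FPKM in females and 469 FPKM in males, and Pgrmc1 at 380 FPKM in females and 411 FPKM in males, and neither passed.

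Of 8 measured 17-beta-HSD genes, Hsd17b4 (60.0 FPKM in females, 70.0 FPKM in males) and Hsd17b12 (35.4 FPKM in females, 44.5 FPKM in males) were called, both higher in males. Hsd17b6 and Hsd17b2 were more abundant, at 84.9 and 79.9 FPKM in females and 90.0 and 75.7 FPKM in males, and did not pass the test. Among the 8 measured genes of A-ring reduction and 11-beta-HSD, Srd5a1, a 5-alpha-reductase, was higher in males at 14.3 against 5.38 FPKM. Akr1d1, the 5-beta-reductase, was higher in females at 53.9 against 28.8 FPKM. Akr1c20 (40.7 against 26.0 FPKM) and Hsd11b1, which regenerates active glucocorticoid (233 against 185 FPKM), were also higher in females. Akr1c6 and Akr1c14 did not pass, at 444 and 63.3 FPKM in females and 450 and 71.0 FPKM in males.

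All 5 measured genes of steroid inactivation were called. Cyp7b1, an oxysterol and steroid hydroxylase, was at 12.9 FPKM in females and 90.9 FPKM in males. Cyp2d9, a testosterone hydroxylase, was at 29.8 FPKM in females and 357 FPKM in males, and Ugt2b1 and Cyp3a11 were also higher in males, at 223 against 107 FPKM and 1177 against 785 FPKM. Sult2a1, a sulfotransferase of hydroxysteroids with close copies in mouse, was higher in females at 115 against 0.0814 FPKM. Sult1e1, the estrogen sulfotransferase, lay under 0.5 FPKM and was called as higher in females at 0.258 against 0.0661 FPKM.

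Of 4 measured receptors and carriers, the estrogen receptor Esr1 (4.68 against 2.46 FPKM) and Serpina6, which carries corticosteroids in plasma (151 against 68.2 FPKM), were higher in females. The mineralocorticoid receptor Nr3c2 was higher in males, at 1.34 against 1.01 FPKM. The glucocorticoid receptor Nr3c1 was at 9.39 FPKM in females and 8.95 FPKM in males and did not pass. Gper1 was at 0.0211 FPKM in females and 0.0144 FPKM in males and did not pass.

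**Figure D4:**
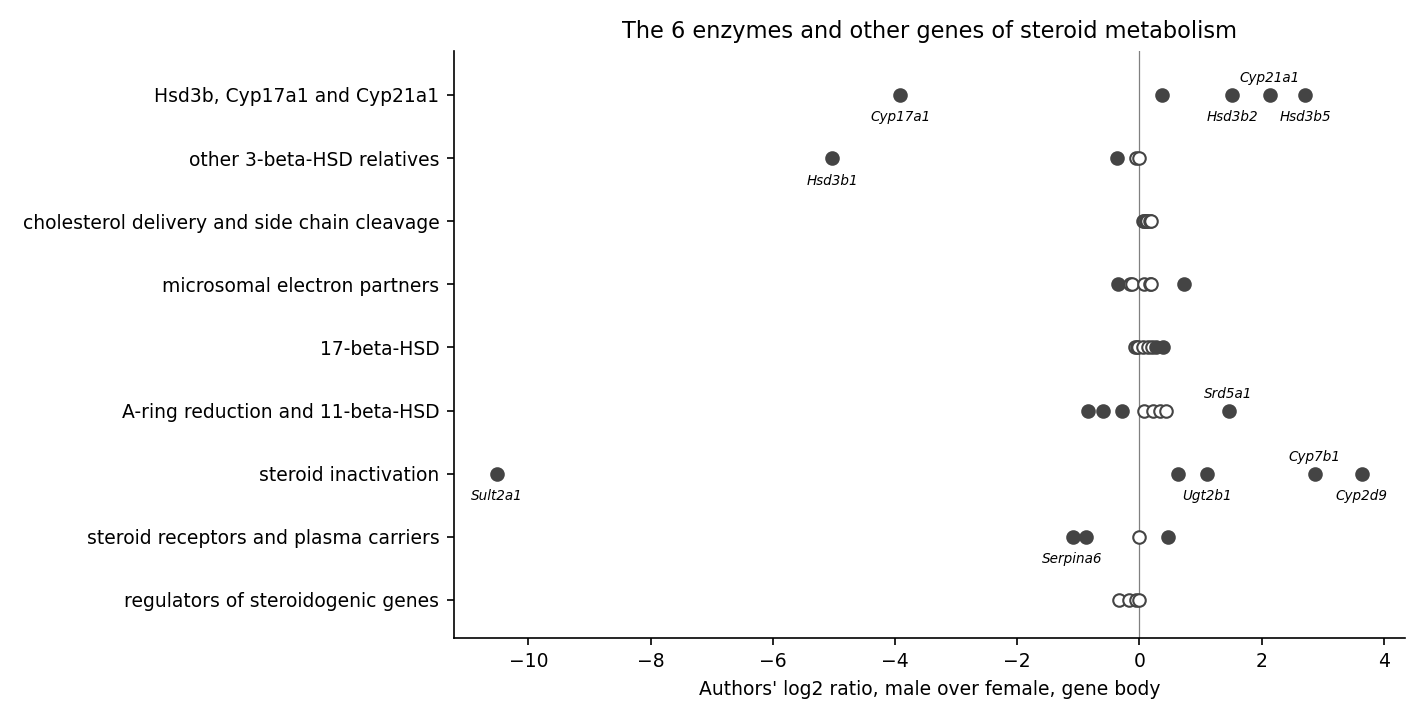
Each circle is 1 gene with a mean of at least 0.5 FPKM, at the authors' log2 ratio of male over female in the gene body, in rows by list; Hsd3b6 is not drawn. Filled circles were called and open circles were not, and names are given for called genes that differ at least 2-fold. The 5 called enzymes of the top row range from -3.91 for Cyp17a1 to 2.71 for Hsd3b5. The cholesterol delivery and regulator rows stay near 0, and 13.8% of all genes at that level were called.

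Markers of steroid-making glands were sparse. Of 11 adrenal and gonad markers, 5 were at 0 in both sexes: Cyp11b1, Cyp11b2, Cyp19a1, Nr5a1 and Mc2r. The list summed to 19.8 FPKM in females and 19.1 FPKM in males, of which Mrap, an accessory protein of melanocortin receptors, made 18.7 and 18.5 FPKM. Without Mrap the other 10 markers summed to 1.10 FPKM in females and 0.674 FPKM in males, with no marker above 0.370 FPKM in either sex. Star, the first step of adrenal and gonad steroid synthesis, was at 0.370 FPKM in females and 0.340 FPKM in males. Akr1b7 was called, higher in females at 0.353 against 0.116 FPKM. Of 6 kidney markers, 5 were at 0 in both sexes and Slc34a1 was at 0.00525 FPKM in females. The 6 hepatocyte markers were all present: Alb (19411 against 12608 FPKM), Cps1 (419 against 292 FPKM) and Ass1 (1133 against 792 FPKM) were higher in females and Apoa1 (3081 against 1991 FPKM) in males. Ttr and Tat did not pass the test, at 1718 and 255 FPKM in females and 1725 and 196 FPKM in males.

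Genes most like each enzyme were found by the distance over 4 values, log2(FPKM + 0.1) of gene body and introns in each sex. Hsd3b5 was nearest to Cyp7b1, at a distance of 1.11, and to Egfr at 1.15. Hsd3b2 was nearest to Hes6 (1.26) and Hhex (1.30), and Hsd3b3 to Fmo5 (0.31) and Dhrs4 (0.32). Cyp17a1 was nearest to Cxcl13 (0.69) and Gm4841 (0.85), and Cyp21a1 to Fgf21 (0.89) and Serpina5 (1.16). Of these, Cyp7b1 lay close to Hsd3b5 in gene body level in both sexes, at 12.9 and 90.9 FPKM beside 14.1 and 89.4 FPKM, with lower introns. Hsd3b6 lay nearest to Crtam and Gm10790, which were likewise at or near 0 in all 4 values.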

How the data were processed

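Liver RNA-seq of 3 male and 3 female pools was analysed from 1 table of the whole series. Per the submitters' processing notes, TopHat2, featureCounts, edgeR and mm9 were used, with no versions. Per the file headers, the authors' FPKM values are means per sex, for gene bodies and introns. The deposited ratio is male over female after the authors' normalization, and the deposited score gives that ratio again as a fold change with a sign. The deposited p-value is adjusted, by a method not given in the sources used here. Whether counting used strand is not given either.

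The authors' comparison was used as deposited, in place of the planned edgeR or limma fits, since no values per pool are listed. Starts were raised by 1 base. Whole reads per library were recovered by a search over read numbers and exon lengths from 500 to 9000 bases. It gave 1 length for each of 7 genes and 1 read set for 27 of 28 values, and on simulated data it returned the true reads for 20 of 20 genes. Recovery at read numbers as high as the 9448 of the Hsd3b2 gene body in males was not tested in this way. The simulated search covered a narrower range of exon lengths, and gene intervals shorter than those of Hsd3b2, Hsd3b3 and Hsd3b5. At most 0.174 chance matches were expected for a value with 1 read set. No test was run on these reads, since an exact permutation test of 3 against 3 libraries cannot go below 0.1. Nothing says whether a liver entered more than 1 pool, so p-values measure the spread between pools.

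The 6 genes, the lists and the markers were chosen with earlier results of these data known. Named were the 6 genes; every called list gene and up to 2 uncalled ones per list with the highest mean; the 2 nearest genes by distance; and the nearest gene on each side. A listed gene is not reported here. Alternatives were an adjusted p under 0.01, a 2-fold limit, minimum means of 0.5 and 1 FPKM, pseudocounts of 0.1 and 1, quantile normalization, rescaling without the 50 most abundant genes, and leaving out each library. Start regions came from RefSeq, with no entry used for Cyp17a1 and Cyp21a1; coding sequences and strands came from GENCODE transcripts of a later build and were aligned with Biopython 1.88. The tools were pandas 2.3.3, numba 0.67.0 and numpy 2.4.6 under Python 3.11.15.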

Additional observations from a re-analysis of the deposited data

How the results depend on the processing

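Of 107 log2 ratios of the 5 called enzymes under other settings, 107 kept the sign of the authors' ratio. Of these, 13 moved by more than a limit taken from the spread between libraries, mostly with a pseudocount on low intron values. That limit was narrower than the full range between libraries. Ratios after leaving out a library were of plain mean FPKM and were set beside the authors' ratio. The call of 5 enzymes in the gene body became 4 with a 2-fold limit and 4 above a mean of 1 FPKM; that in introns became 4 under either limit and under an adjusted p of 0.01. Over all genes the 2-fold limit left 532 of 1808 calls in the gene body and 311 of 523 in introns. The log2 intron ratio minus the gene body ratio reversed for Cyp21a1, from 1.19 to -0.36, with a pseudocount of 1, and moved to -0.37 for Hsd3b2, -0.16 for Hsd3b3 and -2.23 for Hsd3b5. For Hsd3b5 a pseudocount of 0.1 gave -1.14. A pseudocount shrinks low values most, and introns are low. Of the alternatives added after seeing the data, leaving Hsd3b5 out of the summed Hsd3b genes moved the log2 ratio from 1.41 to 0.77. A 2-fold limit left 7 of 18 called genes of the steroid lists.

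Leaving out 1 library gave log2 ratios in the gene body from 2.53 to 2.93 for Hsd3b5, 1.35 to 1.63 for Hsd3b2, 0.27 to 0.36 for Hsd3b3, 1.87 to 2.32 for Cyp21a1 and -4.39 to -3.76 for Cyp17a1. For Hsd3b5 only female libraries could be left out. In introns the median log2 ratio of genes of at least 0.5 FPKM was -0.13 for plain mean FPKM, over 10302 genes. It was 0 for the authors' ratio, over 10936 genes, so the sets of genes differ. The intron folds above are the authors'. No paired analysis was possible because male and female pools are of different animals and share only a number, which the recovered libraries do not carry. Depth limits Hsd3b6, Hsd3b1 in males and the introns of the P450 genes, which rest on 10 or fewer reads in 1 sex.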

Other observations

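Hao2, a peroxisomal hydroxy acid oxidase, lies above Hsd3b1 on chromosome 3 and was named after its values were seen. It was at 46.4 FPKM in females and 1.95 FPKM in males, and the authors' deposited table gives a 23.0-fold higher level in females with an adjusted p of 2.54e-22. Its introns were 20.4-fold higher in females in the authors' deposited table. The genes compared along the chromosome were picked by name. From Hsd3b5 upward, 3 were higher in males, Hsd3b6 was near 0, and the pair Hsd3b1 and Hao2 were higher in females. Below Hsd3b5, Hsd3b4 (0 in females, 0.0288 FPKM in males) and Gm10681 (0 in females, 0.0312 FPKM in males) were not called. Their intervals almost coincide, and whether they hold the same reads was not tested.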
